A study of Homo sapiens with 21 samples.

Results

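The mitochondrially encoded genes are the 37 genes of the circular mitochondrial chromosome (chrM, 16569 bases in GRCh38). They were found by mapping each gene identifier, without its version, to its symbol and keeping the MT- genes, which gave 37 of the 58174 genes listed. The set holds 13 mRNAs, 2 ribosomal RNAs and 22 tRNAs. The mRNAs encode core subunits of the respiratory chain and of the ATP synthase. MT-ND1 to MT-ND6 and MT-ND4L belong to complex I (NADH dehydrogenase), MT-CYB to complex III, MT-CO1 to MT-CO3 to complex IV (cytochrome c oxidase), and MT-ATP6 and MT-ATP8 to the ATP synthase. The remaining subunits of these complexes are made from nuclear genes.

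Mitochondrial DNA is transcribed by the polymerase POLRMT into long RNAs that span many genes. The long RNAs are cut, largely at the tRNAs that stand between the other genes, and most of the released mRNAs receive a short poly(A) tail. MT-ND6 is the only mRNA read from the opposite strand to the other 12, together with 8 of the 22 tRNAs.

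The cells were OCI-AML5, an established line from an acute myeloid leukemia, and UM171 is a small molecule that expands hematopoietic stem cells in culture. Poly(A) RNA was sequenced in 7 groups of 3 libraries each. Control cells received the vehicle DMSO (labelled 72 h) or 500 nM UM171 for 6, 24, 48 or 72 h. Clones with sgEPCR, a guide against PROCR (the gene of the protein C receptor EPCR), whose labels call them both null and knockdown, received DMSO or 500 nM UM171 for 24 h. The study describes 3 independent sgEPCR clones and a control guide against the AAVS1 site, but which library came from which clone is not given in the sources used here. The study's text also names a lower UM171 dose than the labels. Because the sgEPCR DMSO libraries are labelled 24 h and the control DMSO libraries 72 h, genotype and time in DMSO cannot be told apart. In control cells, UM171 at 6, 24 and 48 h and the labelled time cannot be told apart either. The same holds for the interaction of genotype and UM171, whose control part sets UM171 at 24 h against DMSO labelled 72 h. Nothing in the labels says that libraries of a group came from separate cultures, so p-values measure the spread between these libraries, which may be technical.

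The opening bases of 4 transcripts are shown because base content separates the genes in the libraries with the highest mitochondrial share, described further on. They are the first 90 bases in the sense of each RNA, from the GRCh38 genome, with every G in capitals. MT-ATP8 (chrM:8366-8455) has 4 G in this stretch, MT-ND2 (chrM:4470-4559) has 12, MT-CO1 (chrM:5904-5993) has 18 and MT-ND6 (chrM:14584-14673, minus strand) has 27.
MT-ATP8: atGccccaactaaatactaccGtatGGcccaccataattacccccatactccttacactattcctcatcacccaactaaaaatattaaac
MT-ND2: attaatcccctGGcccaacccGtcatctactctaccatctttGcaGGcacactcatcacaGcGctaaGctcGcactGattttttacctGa
MT-CO1: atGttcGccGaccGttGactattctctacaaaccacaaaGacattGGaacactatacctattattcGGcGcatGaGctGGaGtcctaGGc
MT-ND6: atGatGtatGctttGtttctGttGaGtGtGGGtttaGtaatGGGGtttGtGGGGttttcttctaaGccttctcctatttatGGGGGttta

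MT-ATP8 and MT-ATP6 lie on a shared RNA and overlap by 46 bases (chrM:8527-8572), as MT-ND4L and MT-ND4 do by 7 bases (chrM:10760-10766). The windows below (chrM:8500-8599 and chrM:10733-10793, plus strand) show each overlap in capitals, which opens with the ATG of the downstream gene. Reads within an overlap cannot be assigned to either gene by position alone, so the split between MT-ATP8 and MT-ATP6 rests on RSEM's assignment. The largest posterior SD deposited with a count was 0.00414% of it for MT-ATP8 and 0.0453% for MT-ATP6.
MT-ATP8/MT-ATP6: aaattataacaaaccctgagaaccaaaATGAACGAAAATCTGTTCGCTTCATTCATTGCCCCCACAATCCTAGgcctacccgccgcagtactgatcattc
MT-ND4L/MT-ND4: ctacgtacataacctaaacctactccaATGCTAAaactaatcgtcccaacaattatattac

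The libraries held 24.3 to 51.5 M expected counts each (median 33.9 M), where an expected count is the number of reads assigned to a gene after reads shared between genes are split. PROCR, the targeted gene, had a mean TPM of 3.68 ± 0.534 in DMSO and 48.5 ± 0.0115 after 24 h of UM171, against 3.59 ± 1.15 and 7.19 ± 2.58 in the sgEPCR cells (SD, n = 3 each). TPM is the level per transcript length, as a part of all transcripts in the library. Of 8 myeloid markers, PTPRC (CD45) and SPI1 were above 95 TPM in all libraries, whereas KIT was under 1 TPM in all 21 and ANPEP in 20. Of 9 markers of other cell types, 7 stayed under 1 TPM in all libraries and COL1A1 in 20, while the endothelial and leukocyte marker PECAM1 ranged from 5.45 to 46.0 TPM.

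In DMSO the mitochondrial mRNAs were among the most abundant transcripts, with 12 of the 15 rRNAs and mRNAs among the top 20 of all genes by TPM in each DMSO library. MT-CO1 stood at 20107, 17592 and 18471 TPM, MT-CO2 at 19726, 16565 and 16695 TPM, and MT-ATP8 at 19117, 17229 and 17355 TPM. MT-CO3 (14676 to 18768 TPM) and MT-ATP6 (12951 to 16090 TPM) followed, and neighbouring genes among these 5 overlapped in their ranges. Complex I mRNAs were lower per length. MT-ND4 ranged from 10185 to 12792 TPM, MT-ND4L from 8417 to 9157, MT-ND2 from 6880 to 8576, MT-ND1 from 5744 to 6823, MT-ND3 from 5550 to 6985 and MT-ND5 from 3556 to 4001. MT-CYB lay between them at 7141 to 9084 TPM. MT-ND6 was the lowest of the 13 mRNAs at 801, 606 and 716 TPM, apart from all the others. The 16S rRNA MT-RNR2 (9608 to 10567 TPM) was above the 12S rRNA MT-RNR1 (3350 to 4618 TPM), although both were measured after poly(A) selection.

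The 22 tRNAs had practically no counts. They are 59 to 75 bases long and were listed with an effective length of 0, hence with a TPM of 0. Poor capture and the counting of such short RNAs cannot be told apart. Their counts summed to 159 over all tRNAs and libraries, the highest mean count of a tRNA was 2.10 per library, and 6 tRNAs had 0 counts throughout, which allows up to 3 counts per library. DMSO replicate 1 stood apart with 47 tRNA counts against 0 to 14 in the other libraries. Of these, 42 fell on the 8 light-strand tRNAs, which had at most 7 counts in any other library. MT-TA reached 20 counts there. It is named after its values were seen. No tRNA passed the filter on low counts, so the 15 members tested below are the 13 mRNAs and 2 rRNAs.

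The 37 genes together took 7.73% to 13.5% of the expected counts in 19 of the 21 libraries, and 35.9% and 32.2% in the other 2. In DMSO the shares were 9.39%, 7.77% and 7.96%. They were 10.1%, 8.42% and 8.56% at 6 h, 7.80%, 7.73% and 7.81% at 24 h, 8.75%, 7.96% and 13.5% at 48 h, and 11.1%, 9.53% and 9.60% at 72 h. Replicate 1 was the highest at 6 h, at 72 h and in DMSO, while at 48 h replicate 3 stood clear of its group. The sgEPCR cells in DMSO had 35.9%, 8.09% and 8.74%, and in UM171 9.16%, 32.2% and 9.21%. A single library of each sgEPCR group therefore stood apart from its group mates, which lay within the range of the control-cell libraries. The 95% Wilson interval was at most 0.0178 percentage points to either side, and covers counting error only.

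**Figure D1:**
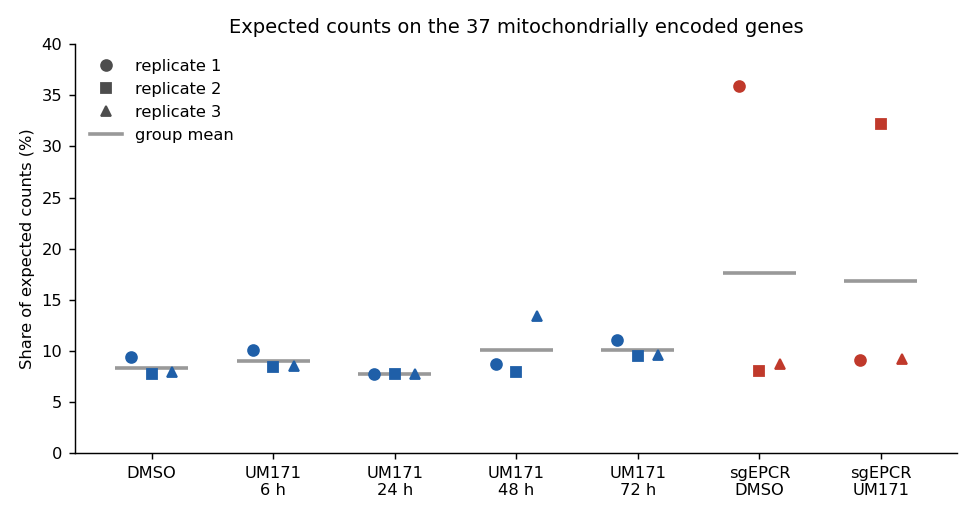
Share of expected counts on the 37 mitochondrially encoded genes (y axis, percent) in each library of the 7 groups (x axis), with replicates 1, 2 and 3 as circles, squares and triangles, control cells in blue, sgEPCR cells in red and group means as grey bars. sgEPCR DMSO replicate 1 (35.9%) and sgEPCR UM171 replicate 2 (32.2%) stand far above the other 19 libraries, which lie between 7.73% and 13.5%.

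In control cells the mean share was 8.37% ± 0.886 in DMSO and 10.1% ± 0.901 after 72 h of UM171 (SD, n = 3), a difference of 1.71 percentage points in which the groups did not overlap. The two-sided exact permutation test gave p = 0.1, the smallest that 3 libraries against 3 allow (Benjamini-Hochberg adjusted p = 0.35 over 7 comparisons, and at least 0.35 for each of the others). At 6 h and 24 h the share differed from DMSO by 0.669 and -0.594 points (exact permutation p = 0.5 and 0.3). The difference at 48 h was 1.69 points (exact permutation p = 0.5), and without replicate 3 it was -0.02 points. sgEPCR cells exceeded control cells by 9.22 points in DMSO (exact permutation p = 0.5) and by 9.07 points in UM171 (p = 0.1, exact). Without the 2 high libraries these differences were 0.0434 and 1.41 points. Within sgEPCR cells, UM171 and DMSO differed by -0.74 points (exact permutation p = 1), and by 0.77 points without the 2 libraries.

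After 72 h of UM171 the mitochondrial RNAs did not move together. Of the 15 members tested, 3 rose and 4 fell at an adjusted p under 0.05 (edgeR's quasi-likelihood test, Benjamini-Hochberg over 16575 genes), and in this comparison 75.6% of all tested genes were called, 38.8% higher and 36.8% lower. The share of members called was below that of all genes. MT-CO1, MT-CO2 and MT-ND4 rose, and MT-RNR1, MT-ND1, MT-ND2 and MT-ND6 fell. The median log2 fold change of the 15 members was 0.13, against 0.02 for all genes tested. Under the stricter limit of the study's methods (0.0001 and 2-fold) MT-ND6 alone was called at 72 h, where 20.8% of all genes were. Under it 0 members were called at 6, 24 and 48 h (7.03%, 13.7% and 16.4% of all genes). The same held for UM171 in sgEPCR cells, for genotype in DMSO, for genotype in UM171 and for their interaction (10.3%, 2.84%, 4.46% and 7.77% of all genes). All times were compared with the same 3 DMSO libraries, labelled 72 h. In bulk RNA, fewer cells with a transcript and less of it per cell cannot be told apart.

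MT-ND6, the light-strand mRNA for a complex I subunit, fell the most. Its level was 801, 606 and 716 TPM in DMSO and 229, 370 and 387 TPM at 72 h, so the groups did not overlap. The log2 fold change was -1.19 ± 0.15 (SE; edgeR adjusted p = 1.6e-06). MT-RNR1, the RNA of the small mitochondrial ribosome subunit, went from 4618, 3907 and 3350 TPM to 2454, 2104 and 1828 TPM. Its log2 fold change was -0.97 ± 0.15 (edgeR adjusted p = 2.1e-05). MT-RNR2, the large-subunit rRNA that follows it on the same precursor, was at 9237 to 10219 TPM at 72 h, within 0.10 log2 units of DMSO (-0.10 ± 0.11, edgeR adjusted p = 0.45). Hence the ratio of MT-RNR2 to MT-RNR1 in TPM, which does not depend on library scaling, was 2.29 to 2.91 in DMSO and 4.16 to 5.43 at 72 h.

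The complex I mRNAs next to the rRNA genes also fell. MT-ND1 was at 6823, 5744 and 5891 TPM in DMSO and at 4589, 3836 and 3704 TPM at 72 h (log2 fold change -0.67 ± 0.20, edgeR adjusted p = 0.0061). MT-ND2 went from 8576, 6880 and 7081 TPM to 6295, 5438 and 5574 TPM (-0.45 ± 0.19, edgeR adjusted p = 0.045). For both genes the 3 libraries at 72 h were below the 3 DMSO libraries. The call of MT-ND2 was lost in 9 of 17 alternatives, among them DESeq2, limma, 2 other scalings and the fits without DMSO replicate 1 or 3 or 72 h replicate 2 or 3, with the same direction in each.

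In contrast, the complex IV mRNAs MT-CO1 and MT-CO2 rose. MT-CO1 reached 28148, 25592 and 25845 TPM at 72 h, above its 3 DMSO libraries (17592 to 20107 TPM), with a log2 fold change of 0.43 ± 0.14 (edgeR adjusted p = 0.0092). MT-CO2 reached 29305, 25311 and 25202 TPM against 16565 to 19726 TPM (0.52 ± 0.18, edgeR adjusted p = 0.015). MT-ND4, a complex I subunit further along the same strand, reached 18110, 15482 and 15143 TPM against 10185 to 12792 TPM (0.46 ± 0.19, edgeR adjusted p = 0.04). MT-ATP6, MT-ATP8, MT-CO3 and MT-ND4L had log2 fold changes of 0.22 to 0.33 that were not called, and MT-ND3, MT-ND5 and MT-CYB lay between -0.27 and 0.13, not called either. Scaled by the 13 mitochondrial mRNAs, MT-CO1, MT-CO2 and MT-ND4 kept their direction (0.18, 0.27 and 0.21) but lost their calls. The TPM ratio of MT-CO1 to MT-ND1 was 2.95 to 3.14 in DMSO and 6.13 to 6.98 at 72 h, and that of MT-CO1 to MT-ND6 was 25.1 to 29.0 and 66.8 to 122.7.

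The estimate of spread was shared by the 15 control-cell libraries, among them the 48 h library that stands apart. Without that library 11 members were called at 72 h, 6 higher and 5 lower, with 76.3% of all genes called (39.2% higher and 37% lower). MT-ATP6, MT-ATP8 and MT-ND4L were then called higher and MT-ND3 lower, in addition to the 7 genes above. Leaving out each DMSO or 72 h library in turn gave 4 to 7 calls, with 4 without DMSO replicate 3.

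**Figure D2:**
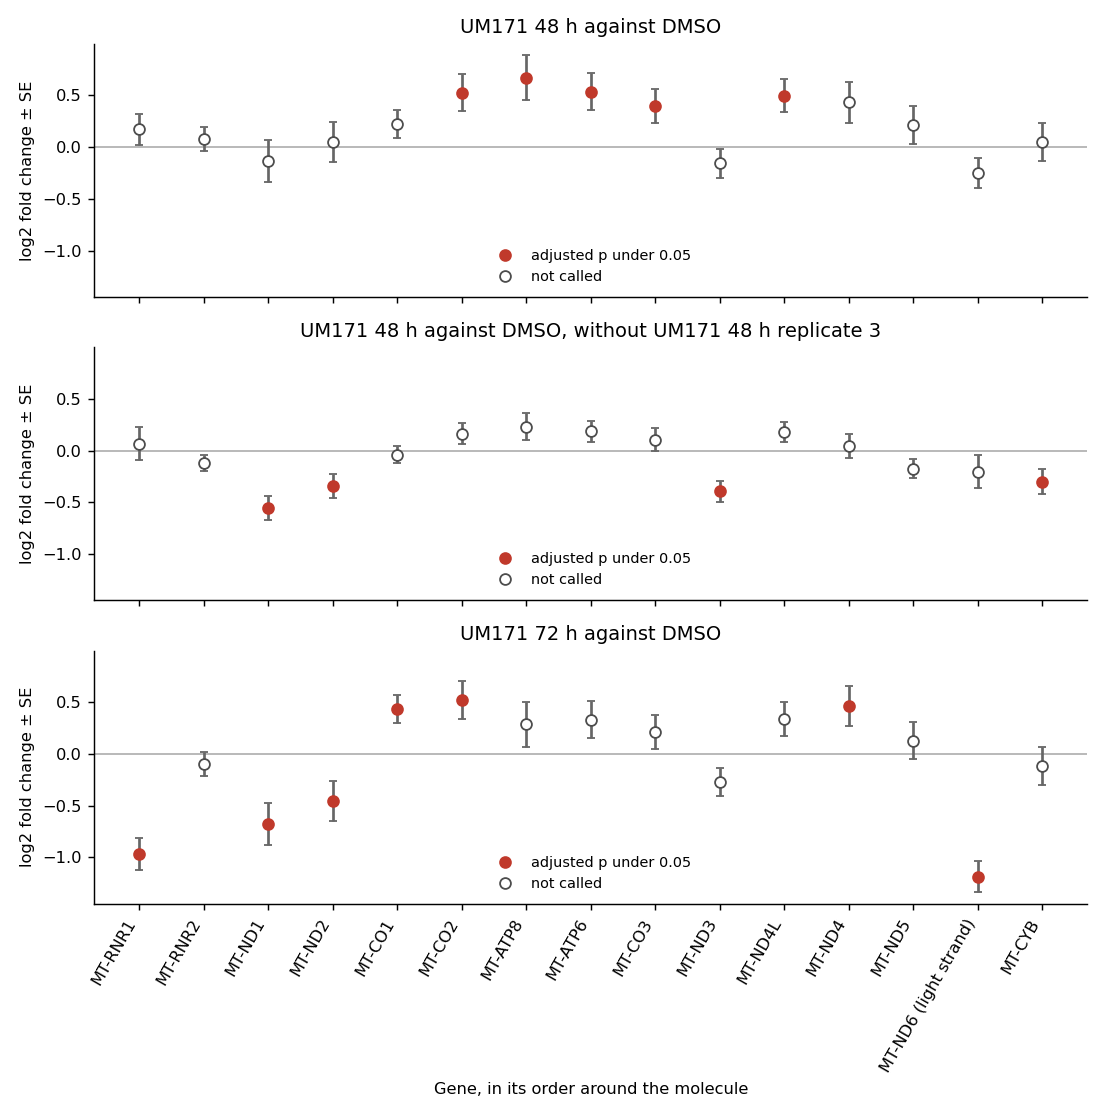
Log2 fold change against DMSO (y axis) of the 2 rRNAs and 13 mRNAs, in their order around the molecule (x axis), at 48 h, at 48 h without replicate 3 and at 72 h; bars are standard errors and filled points have an edgeR adjusted p under 0.05. At 72 h MT-RNR1, MT-ND1, MT-ND2 and MT-ND6 lie below 0 and MT-CO1, MT-CO2 and MT-ND4 above it; the 5 filled points above 0 at 48 h are absent without replicate 3.

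The make-up of the mitochondrial reads is given as each gene's share of the counts on the 37 genes, which does not depend on the scaling between libraries. MT-ND1 took 4.34%, 4.35% and 4.31% in DMSO, 3.89%, 3.89% and 3.69% at 24 h, 3.02%, 3.05% and 3.53% at 48 h, and 2.49%, 2.36% and 2.26% at 72 h. At 6 h it took 4.47%, 4.22% and 4.36%, on both sides of its narrow DMSO range. From 24 h on all its values were below that range. MT-CO2 took 8.36% to 8.58% in DMSO, 8.56% to 9.17% at 24 h, 9.79% to 10.5% at 48 h and 10.5% to 10.9% at 72 h. MT-RNR1 was at 2.45% to 2.95% in DMSO, still at 2.14% to 3.07% at 48 h, and at 1.11% to 1.33% at 72 h. Thus MT-CO2 overlapped with DMSO until 24 h and MT-RNR1 until 48 h.

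At 24 h the shares of 8 of the 15 rRNAs and mRNAs did not overlap with DMSO. MT-ND2, MT-ATP6 and MT-CO3 were above it, and MT-ND1, MT-CO1, MT-ND3, MT-ND5 and MT-CYB below it. For each of these 8 the exact permutation p was 0.1, the smallest that 3 libraries against 3 allow. Relabelling the libraries alone gives such a complete separation with a probability of 0.1. These shares exist for the mitochondrial genes only, so the 8 have no background of other genes. The shares are parts of a single total, so higher shares of some genes lower those of others. The 8 are therefore not separate results. At 6 h only MT-ATP8 and MT-ND3 did not overlap with DMSO. At 48 h all members but MT-RNR1, MT-CO1, MT-ND5 and MT-ND6 lay apart from it, and at 72 h all but MT-CO3 and MT-ND5. MT-ND2 took 5.71% to 6.00% in DMSO, 6.07% to 6.32% at 24 h and 3.69% to 3.76% at 72 h, and so lay on opposite sides of DMSO at these times. MT-CO1 likewise was at 21.5% to 22.8% in DMSO, 20.6% to 21.4% at 24 h and 25.7% to 26.5% at 72 h. MT-ATP6 took 6.67% to 6.96% in DMSO, 8.19% to 8.46% at 24 h and 7.43% to 7.51% at 72 h. MT-CYB took 6.54% to 7.02% in DMSO, 5.41% to 5.53% at 24 h and 5.37% to 5.54% at 72 h. Because 105 such shares were compared with exact permutation tests of 3 libraries against 3, none passed an adjusted threshold, and they are given as values.

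**Figure D3:**
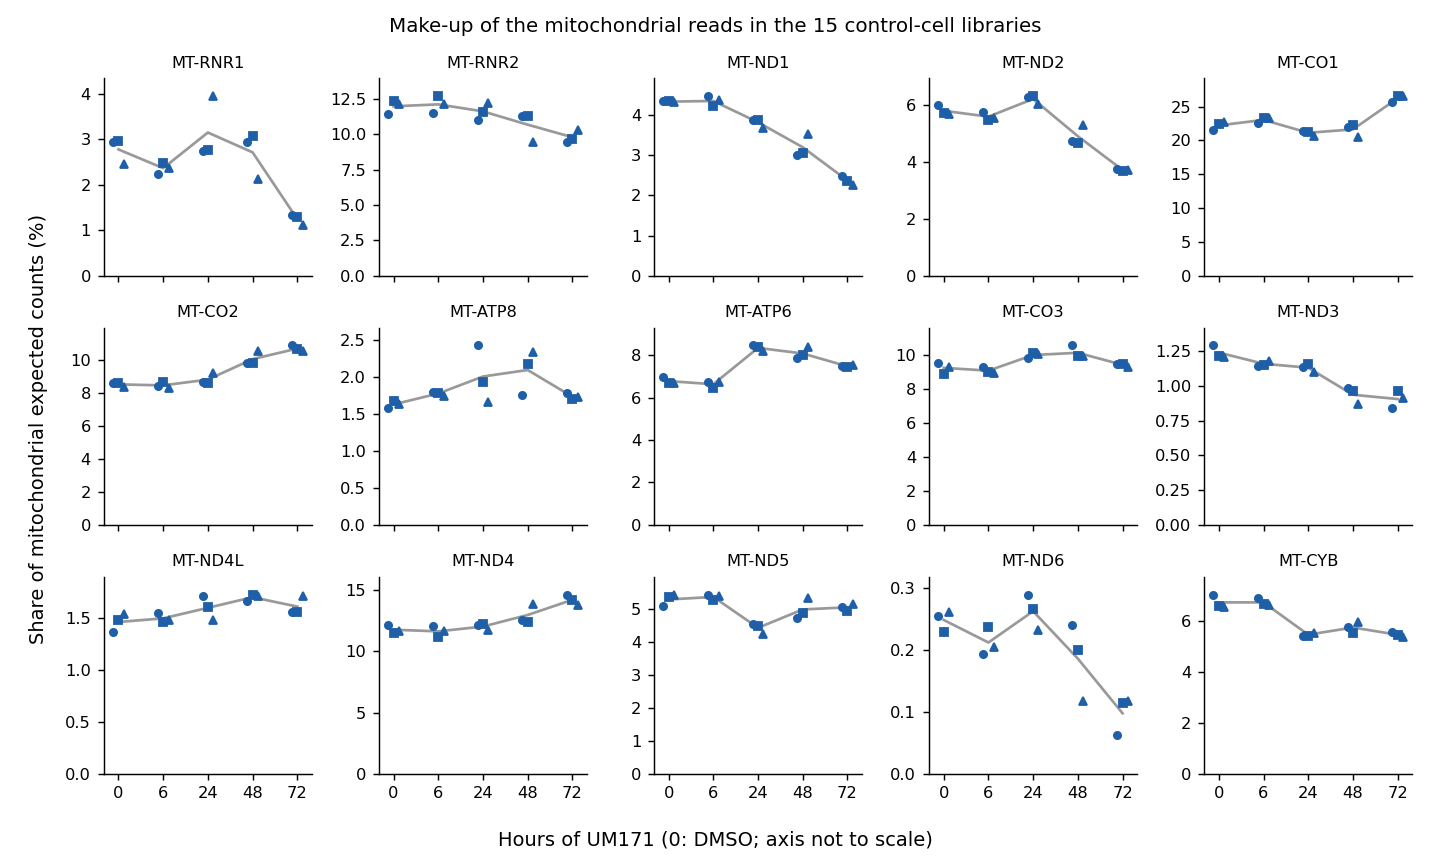
Share of the mitochondrial expected counts (y axis, percent, separate scale for each gene) taken by each of the 15 rRNAs and mRNAs after 0 (DMSO), 6, 24, 48 and 72 h of UM171 in control cells (x axis), with replicates 1, 2 and 3 as circles, squares and triangles and lines through the group means. MT-ND1 lies at 4.31% to 4.35% in DMSO and 2.26% to 2.49% at 72 h, and MT-CO2 at 8.36% to 8.58% and 10.5% to 10.9%.

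At 48 h the calls depended on a single library. With all libraries 5 members rose and none fell by edgeR's test (6 at an unadjusted p under 0.05, and 72.1% of all genes called, 37.1% higher and 35% lower), namely MT-CO2, MT-ATP8, MT-ATP6, MT-CO3 and MT-ND4L, with log2 fold changes of 0.40 to 0.67. MT-ATP8, a small ATP synthase subunit, was at 20481, 23218 and 38117 TPM against 17229 to 19117 TPM in DMSO (0.67 ± 0.22, edgeR adjusted p = 0.011). Replicate 3 was the highest library for 14 of the 15 members in TPM, and MT-ND6 was the exception at 492 TPM against 720 and 550. Leaving out DMSO replicate 2 or 3 gave 2 or 3 calls. Without 48 h replicate 3 none rose and 4 fell (70.6% of all genes called, 36.3% higher and 34.3% lower). These were MT-ND1 (-0.55 ± 0.12), MT-ND2 (-0.34 ± 0.11), MT-ND3 (-0.39 ± 0.10) and MT-CYB (-0.30 ± 0.12), with edgeR adjusted p between 0.00037 and 0.032.

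At 24 h only MT-CYB, the complex III subunit, was called among the members (69.7% of all genes called, 34.9% higher and 34.8% lower). It was at 9084, 7141 and 7349 TPM in DMSO and at 5894, 5864 and 6061 TPM at 24 h, below each DMSO library (log2 fold change -0.44 ± 0.18, edgeR adjusted p = 0.041). The call was lost without DMSO replicate 1 and without each of the 24 h libraries, and DESeq2 called 0 members. In the fit without 48 h replicate 3, 6 members fell (70.7% of all genes called, 35.4% higher and 35.3% lower), namely MT-RNR2, MT-ND1, MT-CO1, MT-ND3, MT-ND5 and MT-CYB, with log2 fold changes of -0.18 to -0.44. At 6 h, 0 members were called by edgeR while 62.1% of all genes were, with 1 member at an unadjusted p under 0.05 and 0 called by DESeq2.

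Most of the nuclear genes that serve the mitochondrial genome fell at 72 h. Of 25 genes for mitochondrial RNA processing and stability, 1 rose and 23 fell, with a median log2 fold change of -0.64. Of 18 genes for mitochondrial transcription and DNA maintenance, 4 rose and 14 fell (median -0.46). The background was 38.8% of all genes called higher and 36.8% called lower, with a median of 0.02. POLRMT, the mitochondrial RNA polymerase, had a mean of 102 ± 4.23 TPM in DMSO and 54.3 ± 3.00 TPM at 72 h (SD, n = 3), a log2 fold change of -0.94 ± 0.07 (edgeR adjusted p = 2.4e-09). TFB2M, the factor that opens the promoter, had the largest fall of its list at -1.84 ± 0.06, and TWNK, the replicative helicase, followed at -1.77 ± 0.05. TFAM, which packs the DNA and binds the promoters, was 0.32 log2 units lower (-0.32 ± 0.05). PRIMPOL, a primase-polymerase, and MTERF2, of the termination factor family, had the largest rises of the list (1.09 ± 0.07 and 0.84 ± 0.12). At 24 h POLRMT was already at -0.96 ± 0.07, whereas TFAM was above DMSO (0.44 ± 0.05, edgeR adjusted p = 8.6e-07).

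LRPPRC and SLIRP form a complex that keeps mitochondrial mRNAs stable and polyadenylated. LRPPRC was at 127 ± 4.62 TPM in DMSO and 102 ± 5.83 TPM at 72 h (-0.34 ± 0.05), and SLIRP at 126 ± 3.33 and 93.9 ± 4.87 TPM (-0.49 ± 0.08). SLIRP was above DMSO before that, at 0.60 ± 0.08 at 24 h and 0.55 ± 0.08 at 48 h (edgeR adjusted p = 1.9e-06 and 5.4e-06). LRPPRC was below it at both times (-0.14 ± 0.05 and -0.40 ± 0.05). FASTKD5 and FASTKD3, which act in mitochondrial RNA processing, had the largest falls of the processing list at 72 h (-1.46 ± 0.06 and -1.37 ± 0.07). REXO2, an oligoribonuclease, was the gene of that list that rose at 72 h (0.22 ± 0.05). Of 79 proteins of the mitochondrial ribosome, 6 rose and 54 fell at 72 h. MRPS12 (-1.50 ± 0.09) and MRPL27 (-1.21 ± 0.07) were at the lower end and MRPL10 (0.52 ± 0.05) and MRPS15 (0.43 ± 0.05) at the upper end. At 6 h 4 of the 79 rose and 55 fell, at 24 h 42 rose and 19 fell, and at 48 h 24 rose and 29 fell. At 24 h 6 of the 18 transcription genes rose and 11 fell, and 5 of the 25 processing genes rose and 14 fell. Background shares at these times follow below.

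The nuclear-encoded partners in the respiratory chain mostly fell at 6 h, mostly rose at 24 h and were divided at 72 h. Of 78 subunits of complexes I to IV and the ATP synthase, 64 rose and 2 fell at 24 h (median log2 fold change 0.45), against a background of 34.9% higher and 34.8% lower, whereas 0 mitochondrially encoded members rose. At 6 h 0 rose and 48 fell (median -0.18, background 31.8% higher and 30.3% lower). At 48 h 51 rose and 6 fell (median 0.26, background 37.1% higher and 35% lower), and at 72 h 21 rose and 25 fell (median -0.02). Examples at 72 h were NDUFA13 of complex I (213 ± 15.3 to 349 ± 13.4 TPM, SD, n = 3) and COX7A2 of complex IV (224 ± 16.5 to 320 ± 21.7 TPM) among those that rose. NDUFV3 and NDUFS3 of complex I had the largest falls, with log2 fold changes of -0.70 ± 0.06 and -0.68 ± 0.10, and UQCRFS1 of complex III was at -0.52 ± 0.07. Of 13 genes of the mitochondrial stress response 8 rose and 5 fell at 72 h (background 38.8% higher and 36.8% lower), led by the cytokine GDF15 (6.14 ± 0.21) and CHAC1 (3.69 ± 0.09), while the chaperone HSPE1 (-1.19 ± 0.05) and the factor ATF5 (-1.35 ± 0.07) fell.

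In sgEPCR cells the comparisons differed with and without the 2 high libraries. With all libraries MT-RNR1 alone rose with UM171 (52.1% of all 15901 genes called, 27% higher and 25.1% lower). MT-RNR1 was at 2804, 4307 and 4678 TPM in DMSO and at 8992, 8234 and 8489 TPM in UM171, so the groups did not overlap (log2 fold change 0.93 ± 0.26, edgeR adjusted p = 0.013). Without the 2 high libraries, 2 members rose and 4 fell in sgEPCR cells (71% of all genes called, 34.5% higher and 36.4% lower). MT-RNR1 (0.76 ± 0.16) and MT-RNR2 (0.54 ± 0.07) rose, and MT-ND2 (-0.25 ± 0.09), MT-ATP8 (-0.54 ± 0.13), MT-ATP6 (-0.34 ± 0.09) and MT-ND4L (-0.21 ± 0.07) fell, with edgeR adjusted p from 3.8e-06 to 0.023. This fit leaves 2 libraries in each sgEPCR group. Scaling by the 13 mitochondrial mRNAs instead of all genes ended the call of MT-RNR1 with all libraries.

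Against control cells in UM171, MT-RNR1 and MT-ND6 were called higher in sgEPCR cells (43% of all genes called, 20.8% higher and 22.2% lower). MT-ND6 was at 1115, 1156 and 1233 TPM in sgEPCR cells and at 768, 703 and 621 TPM in control cells (log2 difference 1.07 ± 0.25, edgeR adjusted p = 0.0063). For MT-RNR1 the difference was 1.35 ± 0.27 (edgeR adjusted p = 0.0021), and 2 members were called whichever library was left out, but none with scaling by the 13 mRNAs. Without the 2 high libraries, 6 members were called higher and none lower (68.3% of all genes called, 32.4% higher and 35.9% lower), with MT-RNR1 at 1.00 ± 0.15, MT-ND6 at 0.69 ± 0.10 and MT-RNR2 at 0.59 ± 0.06. In DMSO, where the labelled times also differ, all 15 differences were positive (0.46 to 2.74) and none was called by edgeR's test (33.7% of all genes called, 17.4% higher and 16.3% lower, 5 members at an unadjusted p under 0.05, 1 called by DESeq2). Without the 2 libraries 5 members were higher and 2 lower (60.3% of all genes called, 30.3% higher and 30% lower), with log2 differences of -0.25 to 0.53.

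The interaction, which compares the UM171 effect between sgEPCR and control cells, called 0 members with all libraries (45% of all genes called, 21.9% higher and 23.1% lower, 1 member at an unadjusted p under 0.05, 1 called by DESeq2), with standard errors of 0.36 to 1.52. Without the 2 high libraries the standard errors were 0.08 to 0.21 and 7 members were called (69.2% of all genes called, 33.6% higher and 35.6% lower). In control cells the effect sets UM171 at 24 h against DMSO labelled 72 h, so genotype and labelled time cannot be told apart here. The UM171 effect was higher in sgEPCR cells for both rRNAs, MT-RNR1 (0.72 ± 0.21) and MT-RNR2 (0.73 ± 0.08), and lower for MT-ATP8 (-0.70 ± 0.17) and MT-ATP6 (-0.49 ± 0.12). The rRNAs took 21% and 20.2% of the mitochondrial counts in sgEPCR UM171 replicates 1 and 3, 13.5% in sgEPCR DMSO replicates 2 and 3, and 13.8% to 16.2% in control cells after 24 h of UM171. For the 78 nuclear-encoded respiratory chain subunits the same interaction was lower for 53 and higher for 0 with all libraries (median -0.89), and lower for 76 and higher for 0 without the 2 libraries.

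RNAs that lack a poly(A) tail or stay in the nucleus (MALAT1, NEAT1, RN7SK, RN7SL1, RN7SL2, RMRP and RPPH1) were listed as a sign of poly(A) capture and RNA quality. Without the 2 high libraries, 4 of these 7 were higher and 1 lower in sgEPCR than in control cells under UM171 (median log2 difference 1.11). The background there was 32.4% of all genes higher and 35.9% lower, and the rRNAs and MT-ND6 were also higher. For UM171 within sgEPCR cells 2 of the 7 rose and 0 fell (median 0.62, background 34.5% higher and 36.4% lower). For the interaction 2 were higher and 0 lower (median 0.69, background 33.6% higher and 35.6% lower). With all libraries 2 of the 7 were higher and 0 lower in each of these 3 comparisons. The background, in the same order, was 20.8%, 27% and 21.9% of all genes higher and 22.2%, 25.1% and 23.1% lower. At 72 h in control cells 3 rose and 0 fell (median 0.20, background 38.8% higher and 36.8% lower). RN7SL2 (2.20 ± 0.66) and RN7SL1 (1.41 ± 0.53) led, whereas MT-RNR1 and MT-ND6 fell. The part of these 7 RNAs in the mitochondrial values was not tested.

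**Figure D4:**
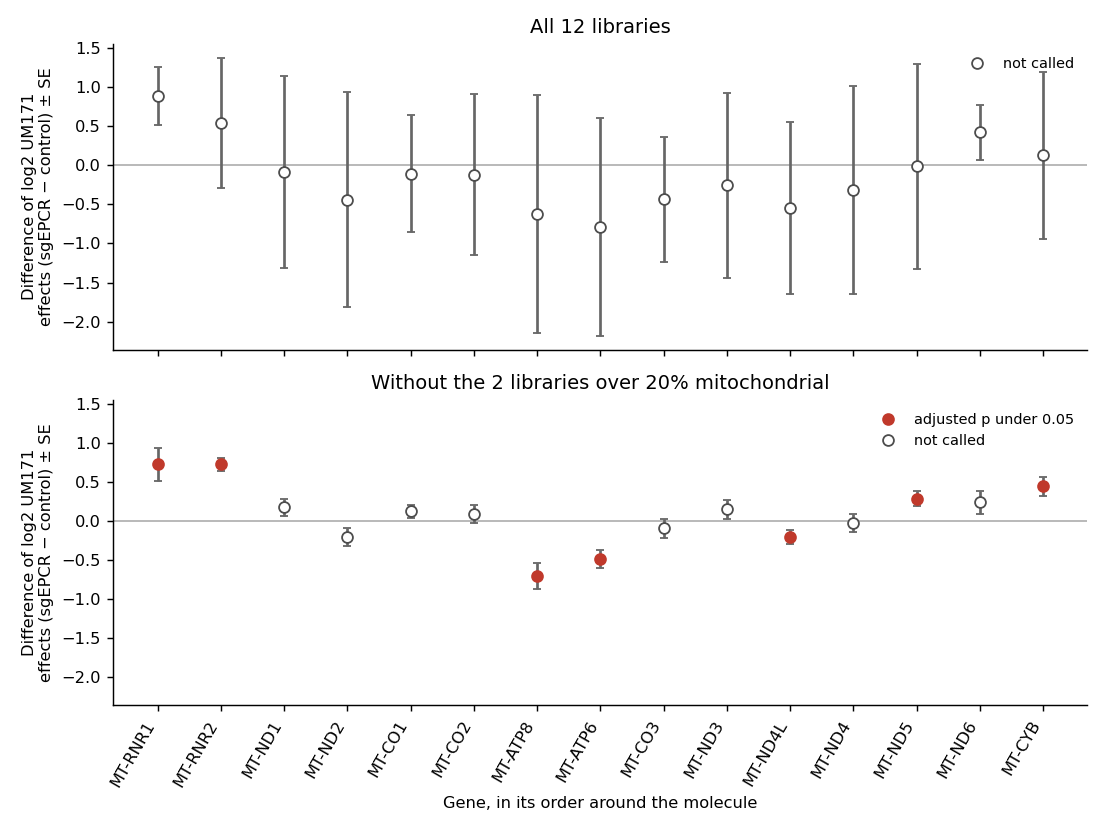
Difference between the log2 UM171 effects in sgEPCR and control cells (y axis, sgEPCR minus control) for the 2 rRNAs and 13 mRNAs in their order around the molecule (x axis), with all 12 libraries (top) and without the 2 libraries over 20% mitochondrial (bottom); bars are standard errors and filled points have an edgeR adjusted p under 0.05. No point is filled at the top, and 7 are filled at the bottom, with both rRNAs above 0 and MT-ATP8, MT-ATP6 and MT-ND4L below it.

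The excess in the 2 high libraries was unequal among the genes. Per nuclear count, sgEPCR DMSO replicate 1 exceeded the mean of its group mates 10.9-fold for MT-ATP8, 10.2-fold for MT-ATP6 and 9.65-fold for MT-ND2. The excess was 3.44-fold for MT-CO1, 1.33-fold for MT-ND6 and 1.28-fold for MT-RNR1. In sgEPCR UM171 replicate 2 the order was nearly the same, from 12-fold for MT-ATP8 to 1.79-fold for MT-ND6 and 1.71-fold for MT-RNR1. Across the 15 genes the log2 excess in one library followed that in the other with Spearman's rho = 0.996, as a description of these libraries.

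Genes poor in G were the most in excess. G content ranges from 6.28% in MT-ATP8 and 9.50% in MT-ND2 through 16.2% in MT-CO1 and 19% in MT-RNR1 to 35.6% in MT-ND6. The log2 excess ran against it with Spearman's rho = -0.971 and -0.961 in the 2 libraries across 15 genes. Without MT-ND6, Pearson's r was -0.922 and -0.951 across 14 genes. Combined G and C content (rho = -0.271 and -0.307) and length (rho = -0.157 and -0.132) ran less closely with it. The contents of A, C and T were not compared with the excess, so G is not set apart from them. The genes share their library, depth and a biased strand, and are not independent replicates. The 48 h replicate 3 library had an excess of 2.04-fold for MT-ATP8, 1.58-fold for MT-CO1 and 0.904-fold for MT-ND6 over its mates (rho = -0.804). The log2 fold change at 72 h ran less closely along G content (rho = -0.229 and Pearson's r = -0.596, and -0.0505 and -0.240 without MT-ND6).

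**Figure D5:**
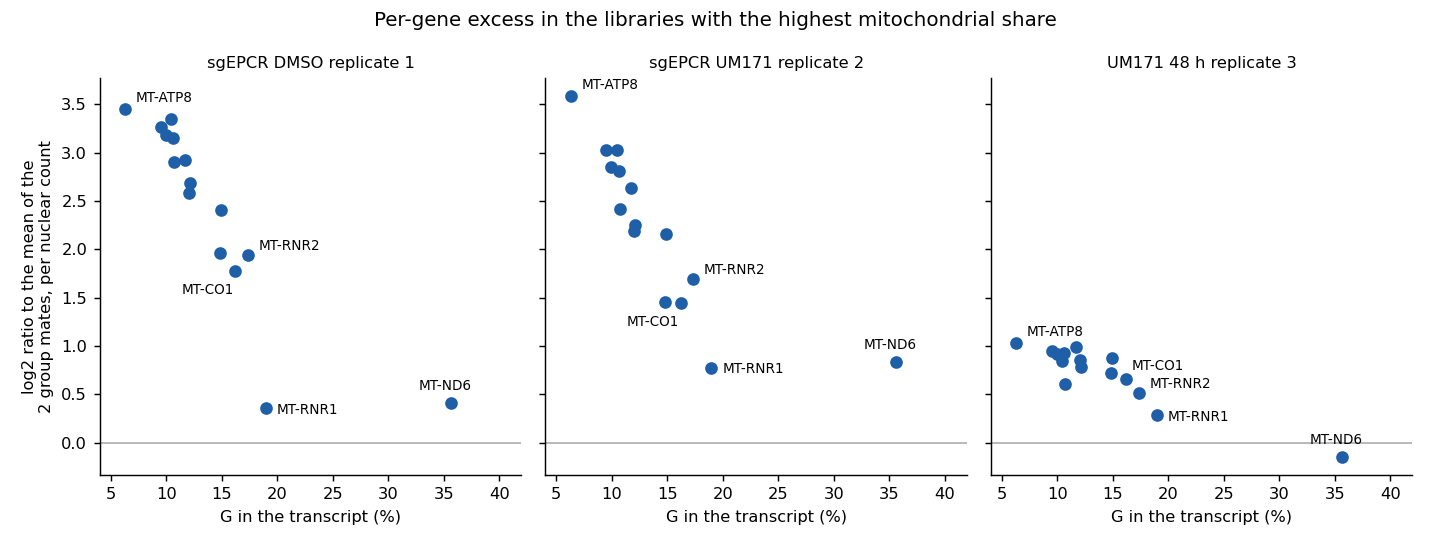
Log2 ratio of counts per nuclear count in a library to the mean of its 2 group mates (y axis) against the G content of the transcript (x axis, percent), for the 15 rRNAs and mRNAs in the 3 libraries with the highest mitochondrial share. MT-ATP8 (6.28% G) has the highest ratio and MT-RNR1 (19% G) and MT-ND6 (35.6% G) the lowest in each panel.

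Base content ran with the nuclear genes of the 2 high libraries as well, grouped here by GC rather than by G alone. Among 8599 nuclear genes with a mean of at least 10 TPM, the third with the lowest GC content exceeded the part of equal size with the highest by 0.77 and 1.12 log2 units in the 2 high libraries relative to their mates, in medians. In the 15 control-cell libraries this difference lay between -0.15 and 0.12, with 48 h replicate 3 at 0.06. By G content, rho across nuclear genes was -0.634 and -0.762 in the 2 high libraries and -0.533 to 0.510 in the control-cell libraries (-0.194 in 48 h replicate 3). Nuclear genes with at least 5 counts numbered 14536 and 15990 in the 2 high libraries and 15742 to 17733 in the other 19. The part of these library differences in the mitochondrial values was not tested.

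Nuclear genes that hold copies of mitochondrial sequence took 1.35% to 3.00% as many counts as the 37 genes themselves. Of 404 annotated copies 89 had any count, and MTATP6P1, MTND2P28 and MTCO1P12 held 99.7% of the counts. These 3 lie on chromosome 1 (chr1:633696-634376 for MTATP6P1). MTATP6P1 took 14.9% to 24.7% as many counts as MT-ATP6, and MTND2P28 2.14% to 4.37% as many as MT-ND2. Since such copies are nearly identical to their mitochondrial source, the split of reads between them rests on RSEM's model for MT-ATP6, MT-ND2 and MT-CO1. Within that model the posterior SD was at most 0.0453%, 0.0435% and 0.00502% of the count.

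The nuclear gene whose log2(TPM + 1) followed the summed level of the 13 mRNAs most closely over the 21 libraries was MTATP6P1 itself (Pearson's r = 0.972, and 0.875 over 19 libraries without the 2 high ones). LUC7L3 (0.941), the thymosin pseudogene TMSB4XP4 (0.938), ARID1A (0.927) and RAB7A (0.917) came next. Without the 2 libraries their r was 0.636, 0.570, 0.630 and 0.226, so the 4 rested largely on those libraries. RAB7A, for instance, was at 207.9 to 322.5 TPM in 19 libraries and at 697.6 and 969.3 TPM in the 2. All values share libraries and the TPM total.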

How the data were processed

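Poly(A) RNA of 21 OCI-AML5 libraries was measured. Per the labels, the submitters' processing notes name CASAVA 1.8.2, Trimmomatic 0.35, STAR 2.5.1b, RSEM 1.2.28 and GRCh38, whereas kallisto and sleuth with annotation version 84 stand in the study's methods. The authors deposited expected counts per gene, without normalization, and TPM, scaled by effective length to a fixed total. The library kit marks strand; whether RSEM used it is not given in the sources used here, so antisense reads over MT-ND6 cannot be told apart. The 45 Y pseudoautosomal entries were summed with their X counterparts. Per-sample columns not mapped numbered 0.

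Expected counts were rounded and tested with edgeR 4.0.16 (filterByExpr, TMM, glmQLFit, glmQLFTest; Benjamini-Hochberg over all genes; called at adjusted p under 0.05) in fits of 15 control-cell and 12 sgEPCR and control libraries. SE is the absolute log2 fold change over the square root of F. Shares were compared by two-sided exact permutation. On simulated 2-fold changes of 200 genes, edgeR recovered 200 at 72 h (16575 genes) and 52 for the interaction (15901 genes). It also called 12 and 4 unchanged genes. The simulation gave every gene a single common spread. It therefore does not give the power for the members, whose SE at 72 h was 0.11 to 0.22, or for changes under 2-fold. Alternatives were other tools (limma 3.58.1 on TPM with a pseudocount of 1 before log2, and DESeq2 1.42.0), other scalings, filters and libraries, the replicate number as a block, and stricter limits. The fits without the 2 libraries over 20% mitochondrial, and without 48 h replicate 3 for other times, were chosen after seeing the data.

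Named were all 15 rRNAs and mRNAs, tRNAs with a mean count of at least 100, POLRMT, TFAM, LRPPRC and SLIRP, the 2 largest rises and falls at 72 h of other lists (examples shown), and the 5 nuclear genes (mean TPM of at least 10) most like the mRNA pool. Members and lists were chosen with earlier results of these data known. Sequences and positions are from GRCh38 with GENCODE release 44. Matplotlib 3.10.9 drew the figures.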

Additional observations from a re-analysis of the deposited data

Results flagged for a closer look

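The UM171 effect differed between sgEPCR and control cells for 7 members by the interaction test (edgeR) when the 2 libraries over 20% mitochondrial were left out, a set of libraries chosen after seeing the data. In the same fit 69.2% of all genes were called, a larger share than the 7 of 15 members. The effect in control cells sets UM171 at 24 h against DMSO labelled 72 h, so genotype and labelled time cannot be told apart. The log2 differences, sgEPCR minus control, were 0.72 for MT-RNR1, 0.73 for MT-RNR2, 0.29 for MT-ND5 and 0.44 for MT-CYB, and -0.70 for MT-ATP8, -0.49 for MT-ATP6 and -0.20 for MT-ND4L. The edgeR adjusted p ranged from 3e-06 for MT-RNR2 to 0.046 for MT-ND4L. With all 12 libraries none of the 7 was called (edgeR adjusted p of at least 0.074). MT-ATP8 and MT-ATP6 are listed as separate genes of a shared RNA, so they are not independent of each other.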

How the results depend on the processing

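The number of members called moved as follows, in the order 6, 24, 48 and 72 h where several times are given. Without a filter on low counts, which also tests tRNAs, it was 12, 9, 14 and 16, and 1 for the interaction. With only the groups compared it was 2, 6, 3 and 11, and 1 for sgEPCR against control cells in DMSO. Scaling by the 13 mitochondrial mRNAs, which shifted the median of all genes by 0.13 at 24 h, -0.21 at 48 h, -0.25 at 72 h and -0.61 and -0.57 between genotypes, gave 0 at 24 h, 2 lower at 48 h, and 0 for UM171 in sgEPCR cells and for genotype in UM171. DESeq2 gave 0 at 24 h, 1 for genotype in DMSO and 1 for the interaction. Total count scaling gave 2 for UM171 in sgEPCR cells and 1 for the interaction, and upper quartile scaling gave 1 for the interaction. At an adjusted p under 0.0001 and over 2-fold the counts were 0 at 24 h and 48 h, 1 at 72 h, and 0 for UM171 in sgEPCR cells and for genotype in UM171. Above, the share of all genes called accompanies the main fits and the stricter limit. It also accompanies the fits without the 2 high libraries or without 48 h replicate 3. For the other settings, here, above and below, it is not given, so those counts have no background and are not results about the members.

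Without the 2 libraries over 20% mitochondrial the counts were 6 for UM171 in sgEPCR cells, 7 for genotype in DMSO, 6 for genotype in UM171 and 7 for the interaction, and 5, 7, 4 and 6 when scaled by the 13 mRNAs as well. Without 48 h replicate 3 they were 6 at 24 h and 11 at 72 h. Same-numbered libraries did not all deviate together. Their correlations were 0.228, 0.053 and 0.123 between DMSO and 6 h and 0.237, 0.007 and 0.232 between DMSO and 72 h, where not every library correlated best with its own number, and -0.899, -0.897 and 0.826 between the sgEPCR groups. The labels tie the numbers to no shared batch, so they were not taken to pair the libraries. The replicate block gave 0 calls for UM171 in sgEPCR cells and could not be fitted between genotypes.

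Leaving out each library in turn, 48 h replicate 3 included, gave 0 to 1 calls at 6 h, 0 to 6 at 24 h, 2 to 7 at 48 h, 4 to 11 at 72 h, 1 to 3 for UM171 in sgEPCR cells, 0 to 0 for genotype in DMSO, 2 to 2 for genotype in UM171 and 0 to 1 for the interaction. At 48 h the low was without DMSO replicate 2, with 3 without DMSO replicate 3, and in sgEPCR cells the high was without UM171 replicate 2, with 2 without DMSO replicate 1. The 1 call at 6 h came without DMSO replicate 2 or 3, and that of the interaction without control UM171 24 h replicate 3, sgEPCR DMSO replicate 1 or sgEPCR UM171 replicate 3. A group left with 1 fewer library is assumed to vary like the others. The share differences ranged from 0.118 to 1.18 points at 6 h, -0.895 to -0.0853 at 24 h, -0.0199 to 2.73 at 48 h, 1.19 to 2.22 at 72 h, 0.0434 to 13.97 for genotype in DMSO and 1.41 to 12.9 in UM171. For UM171 in sgEPCR cells they ranged from -8.40 to 8.43, with 3.10 and 3.08 without UM171 replicates 1 and 3, and were 0.00268 as a share of TPM and 0.77 without the 2 libraries. Of 268 other values of the 16 called genes and contrasts, 0 changed direction and 48 lost the call, for causes not tested. MT-RNR1, MT-ND1 and MT-ND6 at 72 h kept it under each of 17 other scalings, filters, tools and sets of libraries, but only MT-ND6 under the stricter limit, which is not among the 268. Depth was not limiting for rRNAs and mRNAs, whereas no tRNA had a mean above 2.10 counts per library.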
